A study of Mus musculus with 27 samples.

Results

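Lungs exposed to both an allergen and combustion products were compared with lungs exposed to neither, across all genes measured. The doubly exposed group (HDM_CP, 7 libraries) and the control group (PBS_SAL, 7 libraries) were taken from the labels and together make 14 of the 27 libraries of the study. Each library was made from polyA RNA of a whole, flash-frozen lung of a male mouse of genotype C57Bl/6J aged 7 to 8 weeks, and the labels give no sign that a mouse was used more than once, so that p-values measure the spread between these libraries. HDM_CP mice had 5 oropharyngeal instillations of 50 µl holding 10 µg of HDM, an extract of house dust mites that is used to bring about allergic airway disease, with 2 to 3 days between instillations. The next day, 24 h after the final dose, they received 100 µl of a saline suspension of combustion products (CP, made by burning paper, plastic and plywood) at 2 mg per ml, which is 200 µg per mouse, and lungs were taken 24 h later. PBS_SAL mice went through the same number of instillations with phosphate-buffered saline (PBS) and then saline (SAL) alone. The singly exposed groups, HDM_SAL (6 libraries, HDM and then saline) and PBS_CP (7 libraries, PBS and then CP), gave the changes against which the total was set. CP was given once and HDM repeatedly, so dose and duration of the 2 exposures differ, and the labels name no genetic alteration or transgene in any group.

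House dust mite extract carries proteases and microbial products that act on the airway lining, and in mice repeated exposure leads to a type 2 immune response, in which interleukins 4, 5 and 13 act through the transcription factor STAT6. Goblet cells then fill the airways with mucus, macrophages take on an alternatively activated state, and eosinophils are recruited. Combustion products hold polycyclic aromatic hydrocarbons, which bind the aryl hydrocarbon receptor, a transcription factor that switches on the cytochromes P450 of the CYP1 family. Particles and oxidants can also recruit neutrophils and induce antioxidant genes.

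Library totals of the deposited estimated counts lay between 56.3 M and 84.5 M (M, 1e6) over 56941 genes, and 24629 genes passed the filter on low counts. Levels are given below as counts per M (CPM) with the lowest, median and highest library of a group. The total used is that of the genes that passed the filter, scaled by the TMM factors of edgeR. Changes are differences of fitted log2 levels ± their standard error, and adjusted p-values come from edgeR's quasi-likelihood test over all genes with a threshold of 0.05. A gene is said to have risen or fallen where it passed that threshold. Markers of lung cells were abundant in both groups: Sftpc (surfactant protein C of alveolar type 2 cells) ranged 10675 to 12130.0 CPM (median 10970.1) in PBS_SAL and 9908 to 10909 CPM (median 10845) in HDM_CP, and Scgb1a1 (the club cell secretory protein) 15886 to 22834 CPM (median 18487) and 9082 to 27196 CPM (median 15239.6). Of the lists of markers for other tissues, 0 of 14 heart muscle, 0 of 6 adipose and 0 of 4 thymocyte genes were higher and none was lower. Of 7 skeletal muscle genes 1 was lower, and of 9 erythroid genes 1 was higher and 0 were lower. Of all genes tested, 8.61% were higher and 5.88% lower. These are bulk tissues, so fewer cells of a type and less RNA per cell cannot be told apart.

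Some libraries stood apart from their groups, among them HDM_SAL 99, whose part in the counts is given below. PBS_CP 57, from a mouse labelled as given no HDM, held 515 CPM of Clca1 and 1288 CPM of Retnla, where the other 6 PBS_CP libraries held at most 11.1 and 241. Both are genes of the allergic airway. This library bears on the total change only through the shared scaling and estimate of the spread, but it enters the single change of CP, so the sums of lists and the sums in CPM are given with and without it. HDM_SAL 52 was low in genes of goblet cells and mucus, at a summed 288 CPM. The other HDM_SAL libraries held 868 to 4398 and PBS_SAL at most 184. HDM_SAL 52 enters the single change of HDM, and the sums are not given without it.

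Against PBS_SAL, 2120 genes were higher in HDM_CP lungs, which is 8.61% of the genes tested, and 1447 were lower, which is 5.88%. Counts of list members below are to be read against these 2 shares. An unadjusted p under 0.05 was found for 26% of genes. Changes of 2-fold or more were far more often rises than falls: 604 genes rose by that much (2.45%) and 61 fell by that much (0.248%). All 7 HDM_CP libraries lay above all 7 PBS_SAL libraries for 546 genes (2.22%) and below all of them for 252 genes (1.02%). Protein-coding genes passed the test more often than long non-coding RNA genes, 19.9% of 16278 (1905 higher and 1328 lower) against 5.2% of 4055 (132 higher and 79 lower). With the same control libraries, HDM_SAL differed from PBS_SAL at 1339 genes (5.44%), of which 786 were higher (3.19%) and 553 lower (2.25%). On the scale of transcripts per M (TPM) the balance was the other way, with 521 higher and 849 lower for log2(TPM + 1), 537 and 846 for log2(TPM + 0.1), and 330 and 434 without a filter. PBS_CP differed from PBS_SAL at 2 genes, Cyp1a1 and Apol7c, both higher, which is 0.00812% of those tested, and 1343 genes had an unadjusted p under 0.05 there. Apol7c alone passed without PBS_SAL 61, 64, 79, 80, 81 or 104 or PBS_CP 76, 101 or 102, and 5 genes passed without PBS_SAL 105. With limma voom 10 genes passed there, 1 higher (Apol7c) and 9 lower, and with DESeq2 32, 13 higher and 19 lower. Set against CP alone, HDM_CP differed at 1938 genes (7.87%, with 1378 higher, 5.6%, and 560 lower, 2.27%), or at 1207 without HDM_CP 98. The first 3 of these counts come from comparisons that share the PBS_SAL libraries. The count for HDM_SAL rests on 6 libraries and fell to 602 without HDM_SAL 99, to 696 without HDM_SAL 54, to 699 without HDM_SAL 50 and to 759 without PBS_SAL 80.

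**Figure D1:**
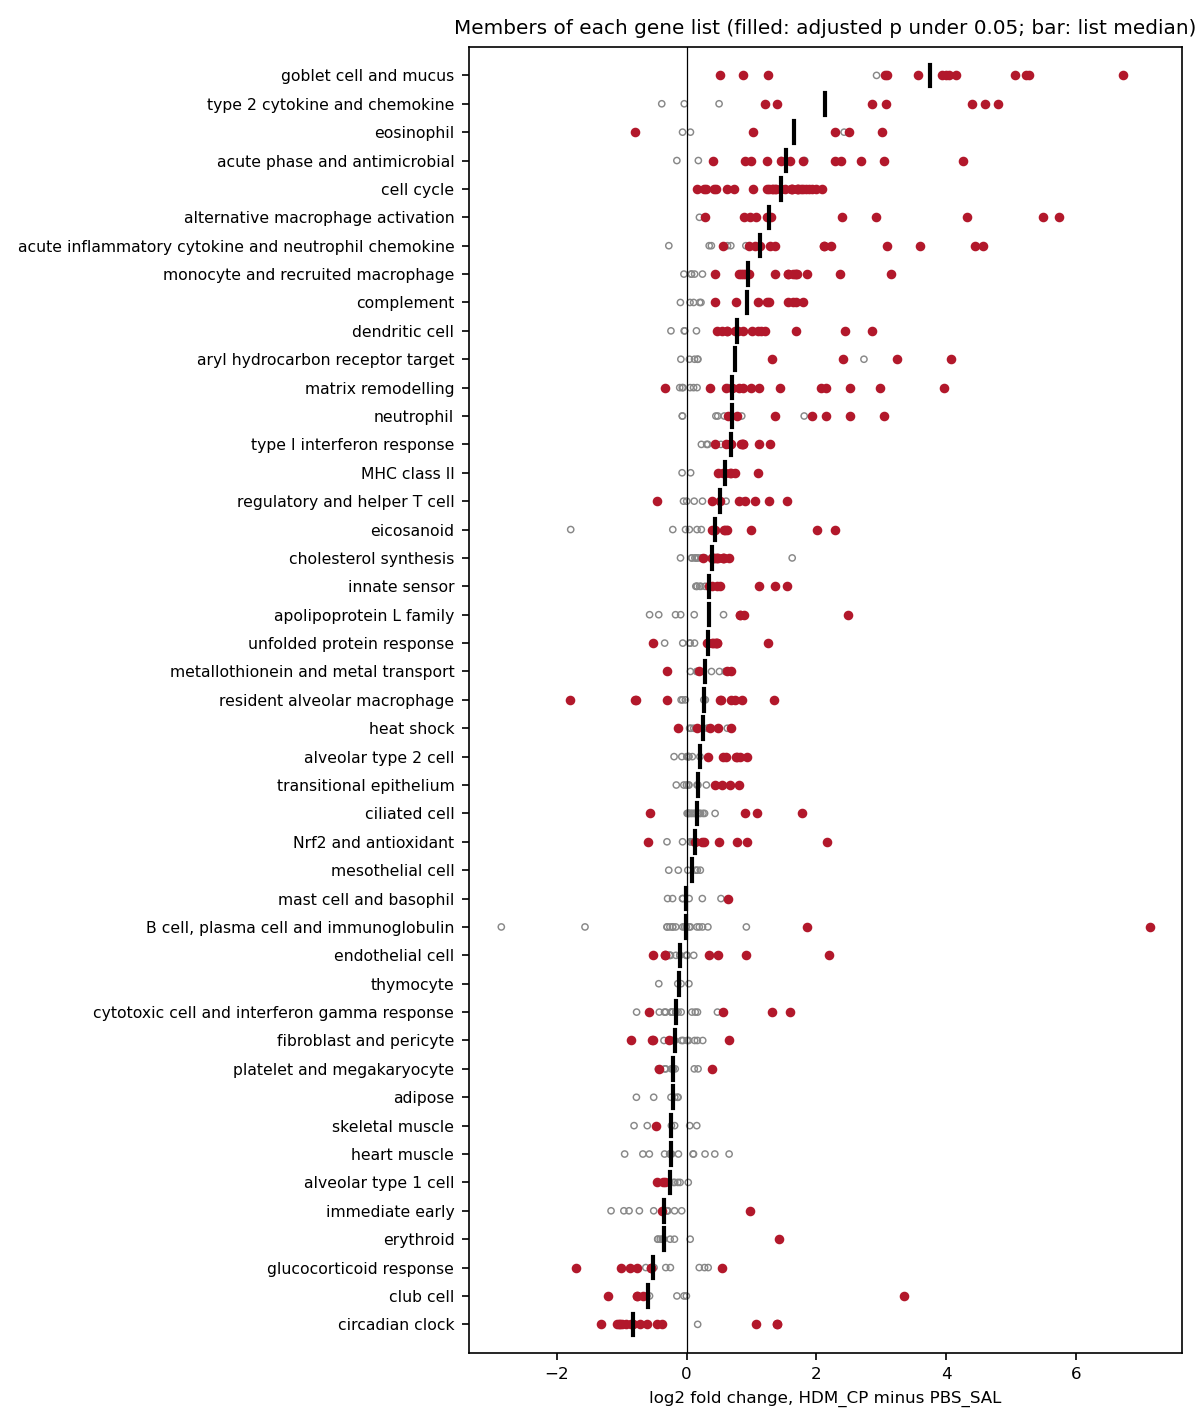
Log2 fold change of each measured member of 45 gene lists, HDM_CP minus PBS_SAL, with 1 row per list, filled points for members with an adjusted p under 0.05, open points for the others and a bar at the list median. Goblet cell and mucus genes have the highest median (3.75) and circadian clock genes the lowest (-0.83), and the widest single value is Ighg1 at 7.14.

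Genes of goblet cells and mucus rose the most of the lists examined. Of its 16 measured members, 14 rose and 0 fell, and the median member changed by 3.75 on the log2 scale, where the median over all genes tested was 0.01. The 2 members that did not pass were Foxa3 and Gcnt3, with changes of 1.27 and 2.93 (named because they were the exceptions). Clca1, a secreted protein of goblet cells that is induced by interleukin 13, was measured between 4.34 and 11.9 CPM (median 7.87) in PBS_SAL libraries and between 71.2 and 1443 CPM (median 782) in HDM_CP libraries. Every HDM_CP library lay above every control, and the lowest of them was HDM_CP 66. The change was 6.73 ± 1.24 (adjusted p = 0.000551), a fold of 106, and in HDM_SAL it was 7.51 ± 1.29.

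The gel-forming mucins followed. Muc5ac, the mucin whose airway expression is induced in allergy, was 0.867 to 3.51 CPM (median 1.94) in controls and 13.2 to 118 CPM (median 82.0) in HDM_CP, a change of 5.27 ± 0.88 (adjusted p = 0.000207). Muc5b, the mucin of the resting airway, was 4.30 to 36.6 CPM (median 6.94) in controls and 44.7 to 326 CPM (median 179) in HDM_CP, a change of 4.04 ± 0.65 (adjusted p = 0.000153). For both genes the groups did not overlap and HDM_CP 66 was the lowest of its group. Slc26a4 (pendrin, an anion exchanger of the airway surface) rose by 5.06 ± 0.51 (adjusted p = 1.11e-06), with between 2.73 and 6.55 CPM (median 4.15) in controls and between 50.2 and 228 CPM (median 174) in HDM_CP. Pigr, which carries immunoglobulin A across the epithelium, rose by 3.06 ± 0.33, with 23.4 to 64.7 CPM (median 34.7) in controls and 169 to 479.8 CPM (median 336) in HDM_CP. Fcgbp (a mucus protein) rose by 4.15 ± 0.81, Bpifb1 (a secreted airway protein) by 3.57 ± 0.87, Adra2a (an adrenergic receptor) by 4.52 ± 0.71 and Creb3l1 (a transcription factor of secretory cells) by 0.87 ± 0.12. PBS_SAL 105 was the control with the most Bpifb1, at 29.5 CPM, and without it the change in Bpifb1 was 4.87 ± 0.86 and that in Muc5b 4.67 ± 0.65.

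Signals of the type 2 response rose together with mucus. Among the 10 measured type 2 cytokines and chemokines, 7 rose and 0 fell (median 2.13). For 6 of the 10 every HDM_CP library was above every control, against 2.22% of all genes. Ccl8, a chemokine for T helper type 2 cells and eosinophils, was between 1.03 and 3.13 CPM (median 1.46) in controls and between 14.7 and 81.0 CPM (median 50.8) in HDM_CP. Its change was 4.80 ± 0.50 (adjusted p = 1.26e-06), a fold of 28.0. Ccl11 (eotaxin, which recruits eosinophils) rose by 3.08 ± 0.42, Ccl22 (made by dendritic cells and macrophages) by 1.21 ± 0.19 and Il33 (an alarm cytokine of the epithelium) by 1.40 ± 0.21. The exception in Il33 was HDM_CP 45, whose 49.7 CPM lay inside the control range of 46.7 to 70.6 CPM. Il13, the cytokine that drives goblet cells, stayed low, at 0 CPM in 5 of the 7 controls and 0.260 to 2.15 CPM (median 0.909) in HDM_CP, with a change of 4.59 ± 0.82 (adjusted p = 0.0003). Leaving out PBS_SAL 104, one of the 2 controls with Il13 above 0, moved that change to 5.74 ± 0.89.

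Genes of alternatively activated macrophages showed the same direction, with 12 of 13 members higher and 0 lower (median 1.26). Retnla, a secreted resistin-like protein of the allergic lung, was 40.1 to 98.4 CPM (median 49.3) in controls and 1372 to 4706 CPM (median 3562) in HDM_CP, a rise of 5.75 ± 0.69 (adjusted p = 9.96e-06). No HDM_CP library fell below 1372 CPM, and no control exceeded 98.4. The chitinase-like proteins Chil3 and Chil4 rose by 2.92 ± 0.30 and 5.50 ± 0.95, from a median of 332 to 2301 CPM and from 3.31 to 189 CPM, and since they are similar paralogs the split of reads between them is uncertain. Arg1 (arginase 1) rose by 4.32 ± 0.66 (adjusted p = 7.39e-05), Mgl2 (a lectin) by 1.26 ± 0.15 and Socs1 (an inhibitor of cytokine signalling) by 1.25 ± 0.17. The promoter of Retnla is shown because STAT6 is the factor of the type 2 response and the letters of a STAT6 site, TTC and GAA separated by 4 bases (the same on both strands), stand in it. The 250 bases before the RefSeq start of Retnla, on build GRCm38.p6, plus strand, chr16:48842359-48842608, with the match in capitals, read as follows.
Retnla: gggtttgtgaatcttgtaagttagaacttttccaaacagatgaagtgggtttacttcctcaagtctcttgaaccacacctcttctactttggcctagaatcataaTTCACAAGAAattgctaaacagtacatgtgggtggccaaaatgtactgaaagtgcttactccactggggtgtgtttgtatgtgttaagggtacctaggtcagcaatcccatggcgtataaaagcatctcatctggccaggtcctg
The match begins 145 bases before this start. The 30 bases after it were found in 0 of the GENCODE transcripts of Retnla on GRCm38, so the start rests on RefSeq alone. Among all 27025 genes of the RefSeq promoter table, 6.76% hold these letters in the same window. Of the 15 named genes with the largest rises, 11 were matched in the table and 1 of them, Retnla, held the letters, so the match describes this promoter and no more.

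Targets of the aryl hydrocarbon receptor formed a second, smaller group. Of 10 measured targets, 4 rose (Cyp1a1, Cyp1b1, Ahrr and Scin) and 0 fell, with a median of 0.74. Of all genes 8.61% rose and 5.88% fell. Cyp1a1, the cytochrome P450 used as the standard readout of the receptor, was between 16.7 and 33.7 CPM (median 26.6) in controls and between 59.8 and 570.5 CPM (median 269) in HDM_CP. The groups did not overlap, but HDM_CP itself ranged widely, with HDM_CP 67 lowest and HDM_CP 96 highest. The change was 3.25 ± 0.61 (adjusted p = 0.000632). In lungs given CP alone Cyp1a1 changed by 3.87 ± 0.62 (adjusted p = 0.0279), a call that was lost without any 1 of the 9 libraries named above. That call was also lost without the filter on low counts, without libraries under 60 M, with limma voom and with log2(TPM + 1), filtered or not. In lungs given HDM alone the difference in Cyp1a1 was 0.25 ± 0.59 (adjusted p = 0.87).

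Cyp1b1 (a related P450 that also metabolizes aromatic hydrocarbons) had the same lowest and highest HDM_CP libraries, with 9.44 to 13.5 CPM (median 10.9) in controls and 23.8 to 118 CPM (median 57.8) in HDM_CP, a rise of 2.42 ± 0.45 (adjusted p = 0.000613). Ahrr, the repressor of the receptor, rose by 1.31 ± 0.36 (adjusted p = 0.0122), with 0.310 to 1.22 CPM (median 0.539) in controls, and had 4 of 7 HDM_CP libraries above every control. Scin, a protein that severs actin and is listed here as a target, rose by 4.08 ± 0.80 in HDM_CP and by 4.84 ± 0.83 in lungs given HDM alone (adjusted p = 0.00134), and did not pass in the total with limma voom (adjusted p = 0.059). Nqo1, a quinone reductase regulated by both this receptor and Nrf2, differed by 0.12 ± 0.28 (adjusted p = 0.845), with between 5.13 and 9.09 CPM (median 7.06) in controls and between 4.50 and 13.3 CPM (median 7.23) in HDM_CP. The promoter of Cyp1a1 is shown for the core letters of the receptor's response element, GCGTG (or CACGC on the other strand), in capitals. These are the 250 bases before the RefSeq start on GRCm38.p6, plus strand, chr9:57697363-57697612.
Cyp1a1: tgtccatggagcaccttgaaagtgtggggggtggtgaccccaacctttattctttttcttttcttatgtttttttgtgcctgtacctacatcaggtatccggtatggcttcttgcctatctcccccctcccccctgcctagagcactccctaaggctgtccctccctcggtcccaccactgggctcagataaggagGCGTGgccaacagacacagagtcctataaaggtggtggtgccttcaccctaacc
The match begins 54 bases before the start. The letters alone do not show that the receptor binds there, and the window says nothing on sites elsewhere. In the same window 30.9% of all genes hold this 5-letter core, and 5 of the 9 listed targets found in the table did (Ahrr, Cyp1a1, Cyp1b1, Scin and Tiparp). The core was also held by 13 of the 15 clock genes found there (86.7%), so it is not particular to these targets.

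Apol7c, a member of the apolipoprotein L family, had the smallest adjusted p of the named genes. It lies on GRCm39 chromosome 15, positions 77409052 to 77417516, in a cluster of similar paralogs. It was measured between 1.81 and 2.64 CPM (median 2.10) in controls and between 7.03 and 20.2 CPM (median 10.5) in HDM_CP, so the lowest doubly exposed lung held more than 2 times the highest control. The change was 2.48 ± 0.22 (adjusted p = 1.17e-07). It was also the one gene, of 24629 tested (0.00406%), that differed between HDM_CP and HDM_SAL, by 1.92 ± 0.22 (adjusted p = 5.88e-05), where 9.7% of genes had an unadjusted p under 0.05. That count of 1 rose to 146 without HDM_CP 45, 46 without HDM_CP 96, 17 without HDM_SAL 99 and 14 without HDM_CP 66. Of the 10 family members measured 4 rose, where 8.61% of all genes did. Beside Apol7c these were Apol7a by 0.88 ± 0.26, Apol6 by 0.83 ± 0.25 and Apol9a by 0.82 ± 0.24. Apol6 did not pass without PBS_SAL 61 or 81 or HDM_CP 98.

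Metabolic and stress genes moved less. Their counts stand beside 8.61% of all genes higher and 5.88% lower, and a single fallen member of a list is near the latter share. Of 17 Nrf2 and antioxidant genes, 7 rose and 1 fell (median 0.14). Slc7a11, the cystine transporter that feeds glutathione synthesis, rose by 2.17 ± 0.40, with 1.51 to 3.38 CPM (median 2.66) in controls and 3.90 to 19.0 CPM (median 11.7) in HDM_CP, with no overlap. Me1 (malic enzyme) rose by 0.93 ± 0.11, Gclc (the catalytic subunit of glutamate-cysteine ligase, of glutathione synthesis) by 0.77 ± 0.13 and Hmox1 (heme oxygenase 1) by 0.49 ± 0.09. In the cholesterol synthesis list 12 of 23 enzymes rose and 0 fell (median 0.39), among them Cyp51 by 0.66 ± 0.11, Idi1 by 0.56 ± 0.10 and Hmgcs1 by 0.48 ± 0.10. Of 15 genes of the unfolded protein response 9 rose and 1 fell: the chaperones Hspa5 and Sdf2l1 rose by 0.47 ± 0.08 and 1.25 ± 0.14, while Herpud1, a component of protein degradation at the endoplasmic reticulum, changed by -0.51 ± 0.08 with all 7 HDM_CP libraries below all controls. Heat shock genes counted 4 risen and 1 fallen of 12.

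**Figure D2:**
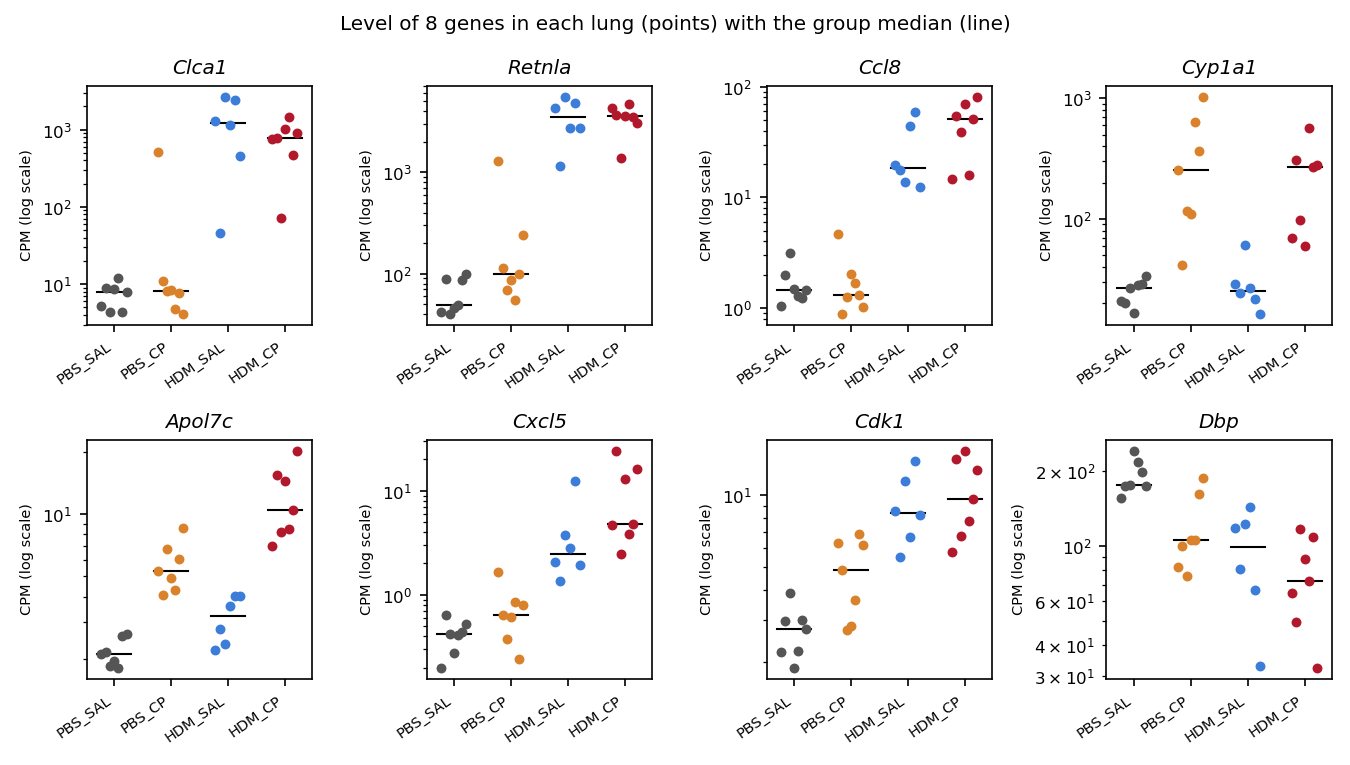
CPM of 8 genes on a log axis in each library of the 4 groups (points), with the median of a group as a line. Clca1, Retnla and Cxcl5 are high in both HDM groups, Cyp1a1 in both CP groups, and Apol7c is highest in HDM_CP, while Dbp is lowest there. The PBS_CP point far above its group for Clca1 and Retnla is library 57.

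Genes of acute inflammation rose in HDM_CP lungs: 13 of 19 cytokines and neutrophil chemokines were higher and 0 lower (median 1.14). Cxcl5, a neutrophil chemokine of the epithelium, was between 0.198 and 0.634 CPM (median 0.421) in controls and between 2.45 and 24.2 CPM (median 4.82) in HDM_CP. The lowest HDM_CP library, HDM_CP 66, lay above every control, and HDM_CP 49 was the highest. The change was 4.57 ± 0.59 (adjusted p = 1.63e-05), and in HDM_SAL it was 3.29 ± 0.58. Cxcl1 and Cxcl3, ligands of the same receptor, rose by 2.11 ± 0.31 and 4.44 ± 0.75, and Osm (oncostatin M, a cytokine of the interleukin 6 family) by 1.05 ± 0.19.

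Neutrophil genes rose in part. Of 18 measured, 7 passed as higher and 0 fell (median 0.70), against 8.61% and 5.88% of all genes. Mmp8 (neutrophil collagenase) was 1.30 to 3.10 CPM (median 2.44) in controls and 3.43 to 31.9 CPM (median 11.3) in HDM_CP, a rise of 2.52 ± 0.35 (adjusted p = 2.6e-05) with all HDM_CP libraries above all controls. Retnlg and Ltf (lactoferrin) rose by 2.15 ± 0.32 and 3.05 ± 0.51. Several markers of the list did not pass: the difference was 0.58 for S100a8 (adjusted p = 0.244), 0.64 for S100a9 (adjusted p = 0.165), 0.48 for Csf3r (adjusted p = 0.205) and 1.81 for Ly6g (adjusted p = 0.329), all 4 named after their values were seen. Ltf is also made by airway epithelium and is a member of the acute phase list as well. That list, of acute phase and antimicrobial proteins, counted 12 risen and 0 fallen of 16 (median 1.53). Lcn2 (lipocalin 2, which binds bacterial siderophores) was 44.0 to 122 CPM (median 55.6) in controls and 167 to 570.2 CPM (median 365) in HDM_CP and rose by 2.39 ± 0.34. C3, the central component of complement, rose by 1.80 ± 0.18 (adjusted p = 6.17e-07) to a median of 2552 CPM from 636. Chil1, a secreted chitinase-like protein, rose by 1.59 ± 0.17 and Lrg1, an acute phase glycoprotein, by 1.46 ± 0.24.

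Eosinophil genes gave a divided picture. Of 8 measured, 4 rose and 1 fell, against 8.61% and 5.88% of all genes. Ccr3, the eotaxin receptor that defines eosinophils, was 0.143 to 0.720 CPM (median 0.336) in controls and 0.117 to 12.3 CPM (median 1.12) in HDM_CP, with 4 of 7 HDM_CP libraries above every control and 1 below every control. Its change was 3.01 ± 0.83 (adjusted p = 0.0139), and without HDM_CP 67, its highest library, it was 2.01 ± 0.76 and no longer passed (adjusted p = 0.0855), when 2 members of the list passed as higher. It did not pass with limma voom either (adjusted p = 0.159). Siglecf, a surface receptor of eosinophils and alveolar macrophages, differed by -0.06 ± 0.20 (adjusted p = 0.898). The Ear genes encode eosinophil-associated ribonucleases that share sequence, so their reads are uncertain: Ear2 rose by 1.02 ± 0.19 and Ear6, at under 1 CPM in every library of both groups, by 2.51 ± 0.77. Without PBS_SAL 105 the change of Ear6 was 3.84 ± 0.79, and it did not pass without PBS_SAL 61, 64, 80 or 81 or HDM_CP 67. Ear1, which alveolar macrophages also express, changed by -0.80 ± 0.25 (adjusted p = 0.0281), a call lost without PBS_SAL 79 or HDM_CP 49, 67 or 98. Alox15 (a lipoxygenase of eosinophils and macrophages) rose by 2.29 ± 0.59, or by 3.20 ± 0.54 without PBS_SAL 61, the highest control.

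Myeloid cell genes rose broadly. Among 22 genes of monocytes and recruited macrophages, 16 rose and 0 fell (median 0.95), and among 18 dendritic cell genes 14 rose and 0 fell (median 0.77). Ccr2, the receptor that brings monocytes out of the blood, was between 52.9 and 76.0 CPM (median 65.4) in controls and between 89.4 and 139.6 CPM (median 110.0) in HDM_CP, a rise of 0.88 ± 0.11 (adjusted p = 8.55e-06) with no overlap. Its ligand Ccl7 rose by 3.15 ± 0.38. Cd14, the lipopolysaccharide co-receptor, rose by 1.36 ± 0.19 and C1qa, a complement subunit made by macrophages, by 1.69 ± 0.25. Tnfrsf9 (4-1BB), Relb and Itgae of the dendritic cell list rose by 2.44 ± 0.34, 0.54 ± 0.07 and 1.10 ± 0.16. Relb had the least spread of these, 24.1 to 26.6 CPM (median 25.0) against 32.1 to 44.6 CPM (median 33.7).

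Genes of resident alveolar macrophages had no common direction, 6 of 15 higher and 4 lower, against 8.61% and 5.88% of all genes. Itgax (CD11c, also on dendritic cells) rose by 1.34 ± 0.23, while Fabp1, a fatty acid binding protein, changed by -1.79 ± 0.43 (adjusted p = 0.00498). The count of lower members was 2 without HDM_CP 49, 67 or 98 in turn. Marco, a scavenger receptor that marks these cells and was named after its values were seen, was 3.93 to 15.2 CPM (median 9.72) in controls and 0.468 to 22.4 CPM (median 9.09) in HDM_CP. Its difference of -0.02 ± 0.54 (adjusted p = 0.988) averages over lungs on both sides of the control range: HDM_CP 67, 98 and 49 lay below it at 0.468, 0.945 and 3.00 CPM, and HDM_CP 96 and 97 above it at 18.8 and 22.4.

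Genes of antigen presentation rose, and those of T cells in part. In the major histocompatibility complex (MHC) class II list 8 of 10 members rose and 0 fell (median 0.58). Cd74, the invariant chain of MHC class II, rose by 0.68 ± 0.12, with 916 to 1136 CPM (median 985) in controls and 1095 to 2239 CPM (median 1435) in HDM_CP, and H2-Ab1 and Ctss (cathepsin S) rose by 0.75 ± 0.14 and 1.10 ± 0.21. HDM_CP 49, 67 and 98 stood above the rest, with a summed level of the list of 4751, 5299 and 5689 CPM against 2607 to 3444 in the other 4 HDM_CP libraries and at most 2923 in controls, and Cd74 in HDM_CP 96 lay inside the control range. H2-M2, an MHC class I gene found among the largest rises, rose by 3.40 ± 0.59. Regulatory and helper T cell genes counted 7 higher and 1 lower of 15: Foxp3, which defines regulatory T cells, rose by 1.06 ± 0.25 (adjusted p = 0.00379) with 4 of 7 libraries above every control, Ctla4 and Icos (co-receptors) by 1.54 ± 0.27 and 0.91 ± 0.22. The one lower member was Gata3, the factor of type 2 helper cells and of other lung cells, at -0.45 ± 0.11. Of 21 cytotoxic and interferon gamma genes 3 were higher and 1 lower, where 8.61% and 5.88% of all genes were. Cxcl9 and Cxcl10, chemokines induced by interferon, rose by 1.60 ± 0.46 and 1.32 ± 0.35, and Prf1 (perforin) changed by -0.57 ± 0.19 (adjusted p = 0.0448). The call of Prf1 was lost in 18 alternatives, among them leaving out PBS_SAL 61, 79, 81, 104 or 105, PBS_CP 58, 59 or 101, or HDM_CP 49, 67, 97 or 98, and that of Cxcl9 was lost without HDM_CP 98, when 1 member of the list was higher. Type I interferon genes counted 10 of 14 higher, with Mx1 at 1.29 ± 0.24 and Oas1a at 1.11 ± 0.21, a count that fell to 6 without PBS_SAL 80 or HDM_CP 66 and to 5 without HDM_CP 67.

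Sensors and matrix genes were also higher, in counts that stand beside 8.61% of all genes higher and 5.88% lower. Of 13 innate sensors 7 rose (4 without HDM_CP 98), including Clec7a (dectin 1, a receptor for fungal and mite glucans) by 1.54 ± 0.26 and Myd88 (the adaptor of Toll-like receptors) by 0.39 ± 0.07. Of 14 complement genes 9 rose and 0 fell, Cfp (properdin) by 1.10 ± 0.15. Of 15 eicosanoid genes 8 rose, Ptges (prostaglandin E synthase) by 0.57 ± 0.07 and Ptgs1 (cyclooxygenase 1) by 0.62 ± 0.10. Of 22 matrix remodelling genes 14 rose and 1 fell (median 0.70). Timp1, the inhibitor of matrix metalloproteinases, was between 3.07 and 10.5 CPM (median 5.22) in controls and between 12.3 and 36.8 CPM (median 25.9) in HDM_CP, with no overlap, and rose by 2.15 ± 0.30 (adjusted p = 2.54e-05). Has2 (hyaluronan synthase) rose by 2.52 ± 0.35, Adamts4 (an aggrecanase) by 2.07 ± 0.35, Vcan (versican) by 1.11 ± 0.16 and Col6a5 (a collagen VI chain) by 3.79 ± 0.43. The iron uptake receptor Tfrc and the zinc and iron transporter Slc39a14 rose by 0.68 ± 0.10 and 0.62 ± 0.10.

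Among the genes described here Ighg1 had the widest range within HDM_CP, and some macrophage genes ordered these 7 lungs in a like way. Ighg1, the constant region of immunoglobulin G1, lies on GRCm39 chromosome 12, positions 113288860 to 113294143 beside other constant regions of similar sequence. In PBS_SAL it was between 0.240 and 1.08 CPM (median 0.603), in HDM_SAL between 1.20 and 3.86 CPM (median 2.11), and in HDM_CP between 0.970 and 447 CPM (median 26.5). HDM_CP 98, 67, 49 and 97 held 447, 88.7, 43.5 and 26.5 CPM, whereas HDM_CP 45, 66 and 96 held 2.11, 1.86 and 0.970. HDM_CP 96 lay inside the control range, and the other 6 lay above it. The change was 7.14 ± 1.13 (adjusted p = 0.000124), and 5.45 ± 0.84 without HDM_CP 98. With limma voom it was 5.15 and did not pass (adjusted p = 0.147). Of the 20 measured B cell, plasma cell and immunoglobulin genes, 2 rose, Ighg1 and Cxcl13 (the chemokine of B cell follicles, 1.86 ± 0.42), and 0 fell, with a list median of -0.02. That share is near the 8.61% of all genes that were higher.

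Mmp12, the macrophage elastase, showed a like order of lungs. It was between 4.79 and 29.7 CPM (median 7.29) in controls and between 21.9 and 548 CPM (median 56.7) in HDM_CP, with HDM_CP 98, 67 and 49 at 548, 256 and 217 CPM. PBS_SAL 105 was the highest control at 29.7 CPM and overlapped 3 HDM_CP libraries. The change was 3.97 ± 0.78 (adjusted p = 0.000971), and 3.27 ± 0.71 without HDM_CP 98. Arg1 had 95.6, 64.0 and 32.0 CPM in the same 3 lungs and 4.25 to 18.9 in the other 4, all above the highest control, 2.18. Gpnmb, a glycoprotein of lipid-laden macrophages, was 11.8 to 63.6 CPM (median 23.1) in controls and 14.4 to 154 CPM (median 35.6) in HDM_CP and did not pass (0.94 ± 0.42, adjusted p = 0.148), but passed without PBS_SAL 105, at 1.30. Clca1 did not follow this order, since its lowest HDM_CP lung was HDM_CP 66 and HDM_CP 96 was the highest at 1443 CPM.

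**Figure D3:**
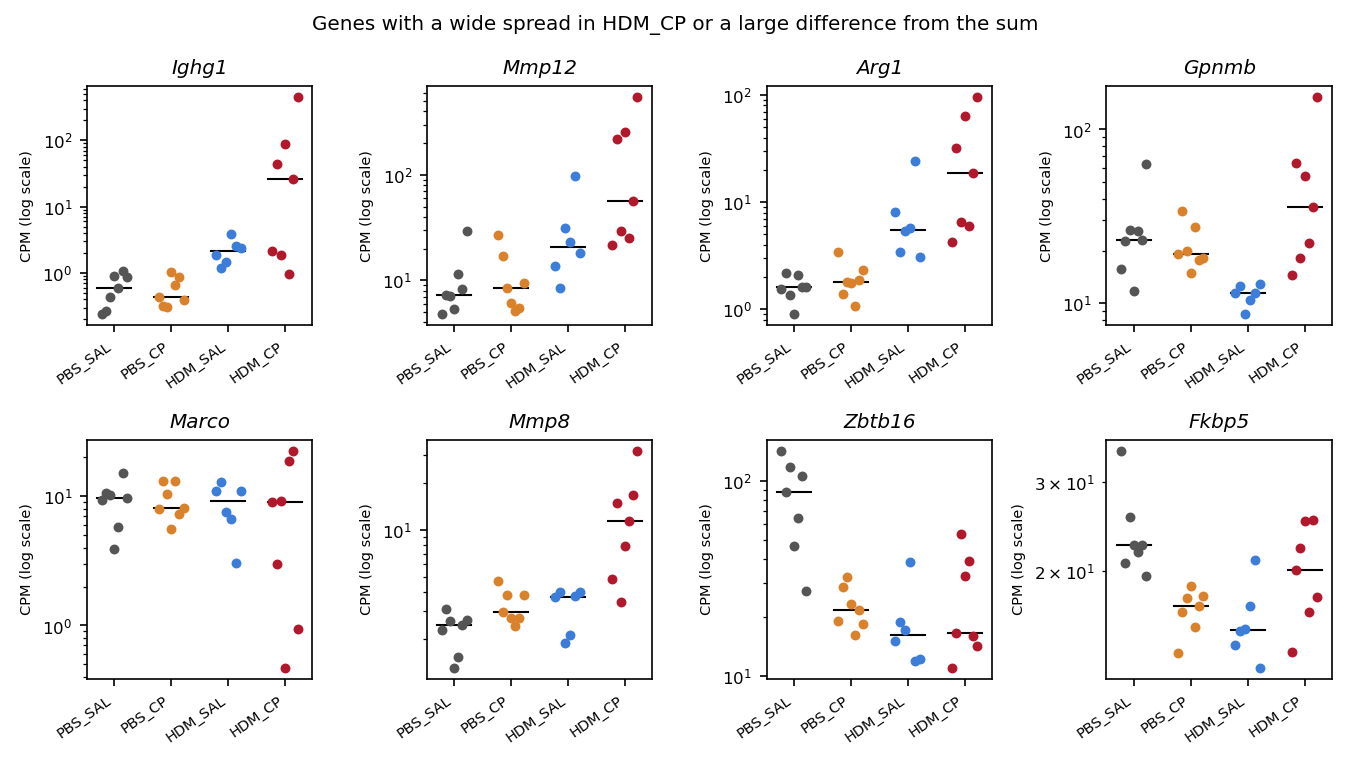
CPM of 8 genes on a log axis in each library of the 4 groups (points), with the median of a group as a line. Ighg1 spans 0.970 to 447 CPM within HDM_CP, and Mmp12, Arg1, Gpnmb and Marco are also widest there. The medians of Zbtb16 and Fkbp5 are highest in PBS_SAL.

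Genes of the cell cycle rose without exception. All 29 measured members passed as higher, against 8.61% of all genes, with a median of 1.45 and a range of 0.16 to 2.08. For 21 of them every HDM_CP library was above every control, against 2.22% of all genes. Cdk1, the kinase that starts mitosis, was between 1.88 and 3.90 CPM (median 2.75) in controls and between 5.78 and 15.4 CPM (median 9.62) in HDM_CP and rose by 1.93 ± 0.26 (adjusted p = 1.54e-05). Kif20a, Tpx2 and Birc5, proteins of the mitotic spindle and of cell division, rose by 1.88 ± 0.24, 1.83 ± 0.24 and 1.70 ± 0.22. The median of the list was 1.07 in HDM_SAL and 0.36 in PBS_CP.

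Falls were smaller than rises, and the circadian clock held the most. Of 17 measured clock genes, 13 fell and 3 rose, against 5.88% and 8.61% of all genes. For 9 of the 17 every HDM_CP library was below every control, against 1.02% of all genes. Dbp, an output factor of the clock, was between 155 and 241 CPM (median 176) in controls and between 32.4 and 117 CPM (median 72.6) in HDM_CP. The groups did not overlap, and the change was -1.32 ± 0.29 (adjusted p = 0.00222). Ciart, a repressor of the clock, was 21.6 to 40.4 CPM (median 27.2) in controls and 14.3 to 18.3 CPM (median 15.4) in HDM_CP, again without overlap, a change of -0.84 ± 0.12 (adjusted p = 2.42e-05). Per1 and Per2 (period proteins, which inhibit the activator Clock-Arntl) changed by -0.99 ± 0.28 and -1.08 ± 0.21, Cry2 (a cryptochrome) by -0.60 ± 0.10 and Bhlhe41 (another repressor) by -1.03 ± 0.17. Without PBS_SAL 80, Per1 did not pass (adjusted p = 0.0558). The 3 that rose were Arntl, Npas2 and Nfil3, at 1.08, 1.39 and 1.39, the first and second being activators of the loop and the last a repressor of Dbp targets (Arntl and Npas2 were named after their values were seen). Median changes of the list were -0.63 in HDM_SAL and -0.38 in PBS_CP. The labels give no clock time of instillation or of lung collection, so a shift in the hour of collection between groups was not tested.

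Promoters of Ciart and Bhlhe41 are shown because the activators Clock and Arntl bind the E-box CACGTG (the same on both strands), here in capitals. They are the 250 bases before the RefSeq starts on GRCm38.p6, both on the minus strand, chr3:95882229-95882478 for Ciart and chr6:145865421-145865670 for Bhlhe41.
Ciart: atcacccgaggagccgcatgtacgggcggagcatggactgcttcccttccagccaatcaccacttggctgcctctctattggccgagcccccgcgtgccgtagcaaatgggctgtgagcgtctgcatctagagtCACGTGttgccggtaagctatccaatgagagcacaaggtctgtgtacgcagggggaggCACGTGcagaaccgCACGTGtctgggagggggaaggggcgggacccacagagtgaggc
Bhlhe41: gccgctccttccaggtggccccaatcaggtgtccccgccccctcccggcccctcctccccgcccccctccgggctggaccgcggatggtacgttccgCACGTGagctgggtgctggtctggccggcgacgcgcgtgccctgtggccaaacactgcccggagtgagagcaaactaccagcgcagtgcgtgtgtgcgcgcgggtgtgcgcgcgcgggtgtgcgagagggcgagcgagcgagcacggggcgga
Ciart holds 3 matches, beginning 116, 58 and 44 bases before the start, and Bhlhe41 holds 1, at 153. Of the 17 clock genes tested, 15 were matched in the RefSeq table. An E-box in the 250 bases was held by 5 of them (33.3%), Bhlhe41, Ciart, Cry1, Per1 and Tef, where 6.86% of all 27025 genes hold one. All 5 fell, but so did most of the matched clock genes, 11 of 15. The letters were not found in this window for Dbp or Nr1d1, which says nothing on sites elsewhere.

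Genes induced by glucocorticoids also fell, 6 of 14 with 1 higher (median -0.52), where 5.88% of all genes fell and 8.61% rose. Zbtb16, a transcription factor with a large response to the hormone, was between 27.2 and 143 CPM (median 88.2) in controls and between 11.0 and 53.3 CPM (median 16.5) in HDM_CP. Controls ranged from PBS_SAL 105 at 27.2 to PBS_SAL 61 at 143, and 4 of 7 HDM_CP libraries lay below all of them. The change was -1.70 ± 0.37 (adjusted p = 0.00252). Fam107a, Map3k6 and Klf9 changed by -1.01 ± 0.15, -0.87 ± 0.14 and -0.54 ± 0.11, each with all HDM_CP libraries below all controls, and Sult1a1 by -0.77 ± 0.11 with overlap. Fkbp5, a chaperone partner of the receptor, did not pass in this comparison (-0.25 ± 0.13, adjusted p = 0.224). The member that rose was Cdkn1a, an inhibitor of the cell cycle, at 0.54 ± 0.14.

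Other genes with the largest falls came from several cell types. Coro6, a coronin, was between 11.0 and 15.6 CPM (median 13.5) in controls and between 1.65 and 8.29 CPM (median 3.94) in HDM_CP, without overlap, and its change was -1.68 ± 0.23 (adjusted p = 2.02e-05). Wnt10b (a Wnt ligand), Ptgfr (the prostaglandin F receptor) and Galnt15 (a glycosyltransferase) changed by -1.14 ± 0.18, -1.08 ± 0.16 and -1.15 ± 0.20, with all HDM_CP libraries below all controls. Hif3a, an inhibitory subunit of the hypoxia-inducible factor family, changed by -1.11 ± 0.21, Fabp3 (a fatty acid binding protein of muscle) by -1.09 ± 0.22 and Esm1 (a proteoglycan of endothelium) by -1.07 ± 0.27.

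Markers of the resident lung cells shifted by small amounts. Their counts stand beside 8.61% of all genes higher and 5.88% lower, and a single member called in a list is near those shares. Of 10 club cell genes 4 fell and 1 rose: Cyp2f2, a P450 of these cells, fell, with 1527 to 2633 CPM (median 2004) in controls and 671 to 1912 CPM (median 1227) in HDM_CP, a change of -0.77 ± 0.19 (adjusted p = 0.00623), and Cbr2, Gsta3 and Pon1 changed by -0.67 ± 0.16, -0.77 ± 0.16 and -1.21 ± 0.29. The riser was Scgb3a1, a secretoglobin of the large airways, at 3.35 ± 0.90, or at 5.68 ± 0.75 without PBS_SAL 105, the highest control at 65.4 CPM. Alveolar type 1 genes fell in 3 of 11 cases (6 without HDM_CP 66, 5 without PBS_SAL 105), with Hopx at -0.37 ± 0.10 and Rtkn2 at -0.46 ± 0.12. Alveolar type 2 genes rose in 7 of 15 cases and fell in 0. Sftpd (surfactant protein D, a collectin of innate defence) rose by 0.93 ± 0.12, with 424 to 530.0 CPM (median 469.7) in controls and 696 to 1168 CPM (median 909) in HDM_CP, without overlap, and Sftpa1 (surfactant protein A) and Cxcl15 (lungkine) rose by 0.56 ± 0.08 and 0.82 ± 0.10, whereas the difference in Sftpc was -0.07 ± 0.06 (adjusted p = 0.499). Ciliated cell genes counted 3 higher and 1 lower of 18, with Mcidas, a regulator that starts multiciliation, at 1.77 ± 0.45 and Tppp3, a tubulin-binding protein, at -0.56 ± 0.12. Fibroblast and pericyte genes counted 4 lower (2 without PBS_SAL 79 or HDM_CP 98) and 1 higher of 17: Inmt and Tcf21 changed by -0.86 ± 0.16 and -0.53 ± 0.11, and Mfap4 by 0.66 ± 0.18. Endothelial genes counted 4 higher and 3 lower of 17 (5 lower without HDM_SAL 54, HDM_SAL 100 or HDM_CP 66), with the adhesion molecules Selp and Vcam1 at 0.91 ± 0.17 and 0.48 ± 0.10 and the capillary receptor Ednrb at -0.52 ± 0.10.

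The total change was then set against the sum of the 2 single changes, HDM_SAL minus PBS_SAL plus PBS_CP minus PBS_SAL, on the log2 scale. A difference of 0 means that the folds multiply. No gene passed the test of this difference (0%), and an unadjusted p under 0.05 was found for 1571 genes (6.38%). With DESeq2 6 genes passed, all with a total above the sum, and with limma voom 0. The median standard error of the difference over all genes was 0.21 and the median half-width of its 95% interval 0.43, so for a typical gene departures smaller than that could not be told from 0 even without adjustment. Among the 2120 genes that rose, the median total change was 0.59 and the median sum 0.44, and among the 1447 that fell they were -0.31 and -0.31. Choosing genes by the total favours the total, and choosing them by HDM_SAL favours the sum: among the 786 genes higher in HDM_SAL the median total was 0.87 and the median sum 1.00. PBS_SAL libraries enter both sides.

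**Figure D4:**
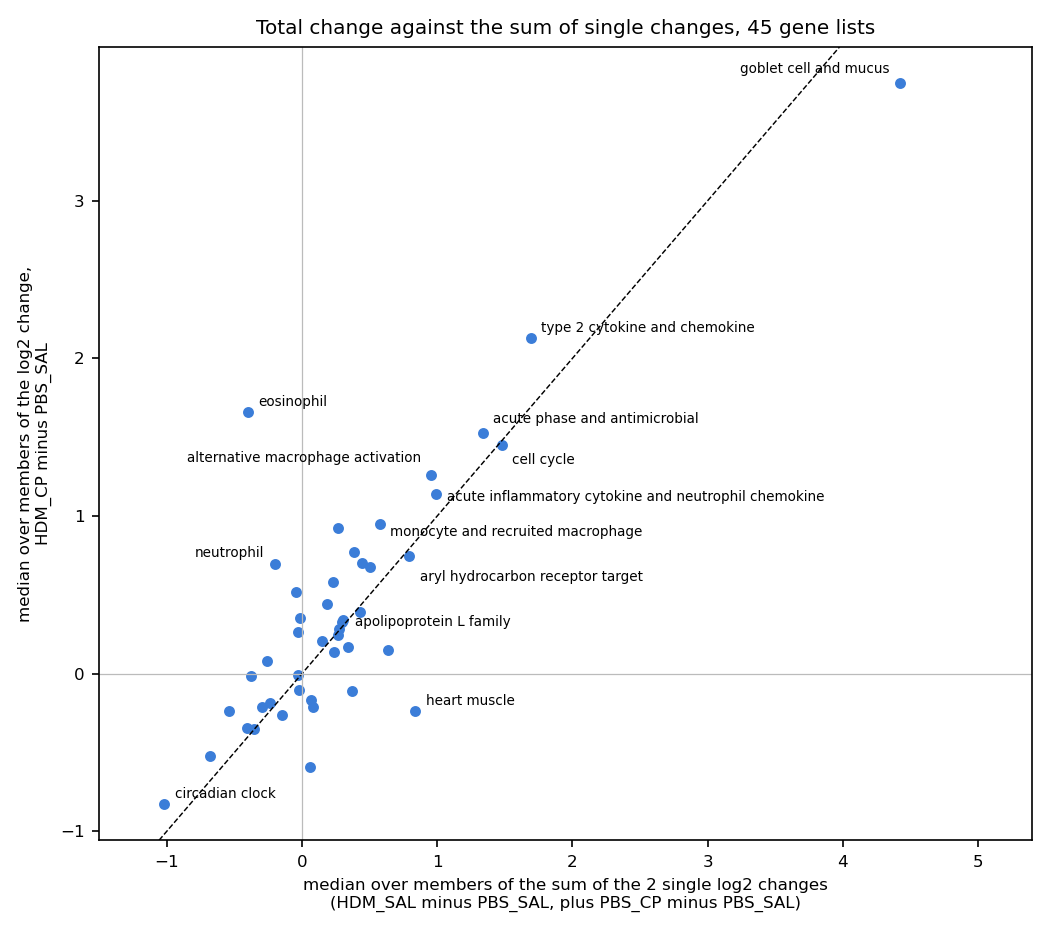
Median over the measured members of each of 45 gene lists of the total log2 change (vertical axis) against that of the sum of the 2 single log2 changes (horizontal axis), with a dashed line where both are equal. Both axes use the same PBS_SAL libraries. Neutrophil and eosinophil lists lie above the line, at totals of 0.70 and 1.66 against sums of -0.20 and -0.40, and the goblet cell list lies below it. The median over eosinophil members of the difference itself is smaller, 0.55. The mean log2 CPM of the neutrophil list was higher in both singly exposed groups than in PBS_SAL, although its median sum is below 0.

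By list, the medians of total and sum were close for the cell cycle (1.45 and 1.48) and the acute phase list (1.53 and 1.34), with sums of 1.46 and 1.28 without PBS_CP 57. For goblet cell genes the total was 3.75 and the sum 4.42, or 4.02 without PBS_CP 57. HDM_SAL 52, which was low in these genes, stayed in both sums. For the neutrophil list the total was 0.70 and the sum -0.20 (-0.12 without PBS_CP 57), with 9 of 18 members at an unadjusted p under 0.05 where 6.38% of all genes had one. For monocyte genes the medians were 0.95 and 0.57 (0.54 without PBS_CP 57), with 8 of 22 members at such a p. For helper T cell genes they were 0.52 and -0.05 (-0.04 without PBS_CP 57), with 7 of 15. Complement genes had 7 of 14 members at such a p and innate sensors 6 of 13. In the ciliated cell list 0 of 18 members had a total above the sum. Members of a list come from the same lungs, so these counts are no test of a list. No member of any list passed this difference after adjustment. Clock genes had a total of -0.83 and a sum of -1.02 (-0.99 without PBS_CP 57). Heart muscle genes, of which none passed in the total, had a total of -0.24 and a sum of 0.84 (0.89 without PBS_CP 57). Their summed level was highest in PBS_CP 102 (261 CPM) and HDM_SAL 99 (231 CPM), against at most 141 CPM in PBS_SAL and 136 CPM in HDM_CP. Both of these libraries enter the sum, which is not given without them. The median over members of the difference itself was -0.94 for heart muscle, 0.95 for neutrophil and 0.55 for eosinophil genes.

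For single genes the smallest p of this difference belonged to Ank, a pyrophosphate exporter, at 0.47 ± 0.09 (95% interval 0.29 to 0.65, adjusted p = 0.318). Its level was 18.8 to 23.8 CPM (median 21.9) in PBS_SAL, 16.6 to 19.5 CPM (median 18.6) in PBS_CP, 16.5 to 21.3 CPM (median 17.8) in HDM_SAL and 19.1 to 24.1 CPM (median 21.6) in HDM_CP. The medians of both singly exposed groups were below those of PBS_SAL and HDM_CP, with overlap between all 4 groups. For the glucocorticoid genes Fkbp5 and Zbtb16 the total exceeded the sum by 0.85 ± 0.19 (adjusted p = 0.694) and 2.36 ± 0.54 (adjusted p = 0.694). For Zbtb16 the difference from controls was -2.16 ± 0.40 with HDM alone (adjusted p = 0.0025) and -1.90 ± 0.38 with CP alone (adjusted p = 0.154), which sum to -4.06, and -1.70 with both. Sema7a (a semaphorin) and Ndrg1 (a stress-induced gene) differed by 0.49 ± 0.12 and 0.47 ± 0.11, and Zfp938 (a zinc finger gene) by -0.48 ± 0.12. Of these 6, DESeq2 called Ank, Fkbp5 and Zbtb16.

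**Figure D5:**
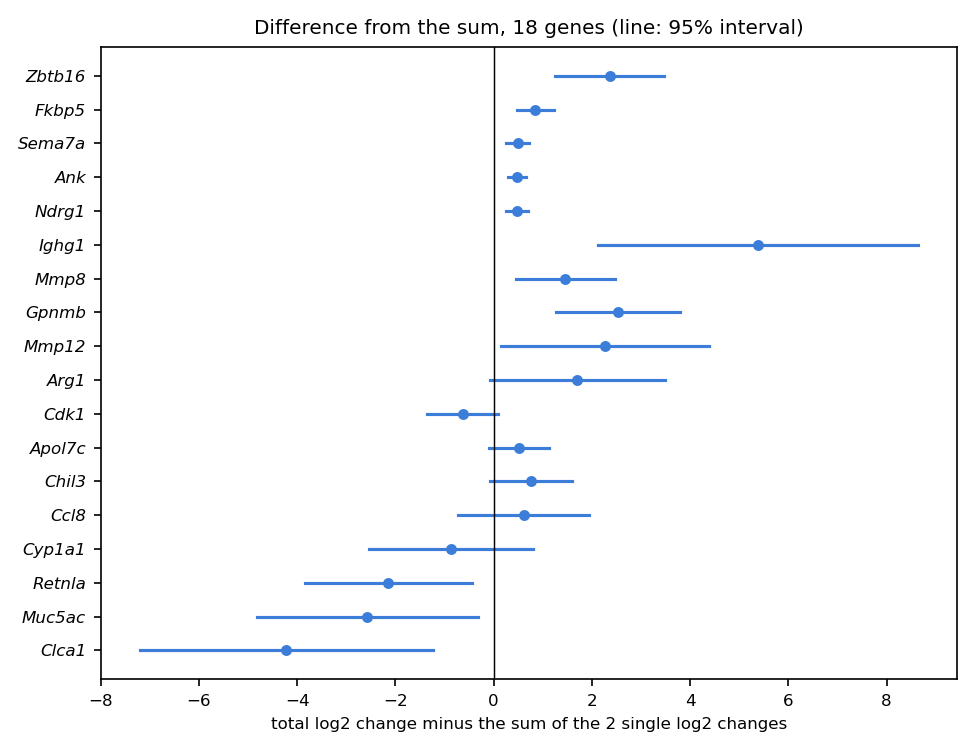
Total log2 change minus the sum of the 2 single log2 changes for 18 genes (points) with 95% intervals (lines), and a vertical line at 0, where folds multiply. None passed after adjustment over all genes. Intervals of Clca1, Muc5ac and Retnla lie below 0 with PBS_CP 57 included. Those of Zbtb16, Fkbp5 and Ank lie above 0, as do others shown, such as Gpnmb, Ighg1 and Mmp8.

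Clca1 differed from its sum by -4.22 ± 1.45 (95% interval -7.21 to -1.24, adjusted p = 0.742), but -0.78 ± 0.85 without PBS_CP 57. Muc5ac and Retnla moved likewise from -2.57 to -0.83 ± 0.81 and from -2.14 to -0.81 ± 0.50. Ighg1 exceeded its sum by 5.38 ± 1.58 (adjusted p = 0.742), or by 3.73 ± 1.12 without HDM_CP 98, and it too was called by DESeq2 (5.44, adjusted p = 0.0178). Gpnmb exceeded it by 2.53 ± 0.61 (adjusted p = 0.694), with single differences of -1.27 ± 0.45 in HDM_SAL (adjusted p = 0.0997) and -0.32 ± 0.42 in PBS_CP (adjusted p = 1). Mmp12 and Arg1 exceeded it by 2.26 ± 1.02 and 1.71 ± 0.86, or by 1.56 ± 0.95 for Mmp12 without HDM_CP 98 and by 3.02 ± 1.01 and 2.41 ± 0.81 without HDM_SAL 99. Mmp8 exceeded it by 1.46 ± 0.49. Intervals for Cyp1a1 (-2.53 to 0.79), Apol7c (-0.10 to 1.13), Ccl8 (-0.72 to 1.95), Chil3 (-0.07 to 1.59) and Cdk1 (-1.36 to 0.10) all held 0, and they also hold departures of 2-fold.

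The scale decides what additive means, so differences of mean CPM were also formed, with no test. Apol7c was 9.87 CPM higher in HDM_CP than in controls, where the single differences sum to 4.58. For Ccl8 the values were 45.0 and 26.3, and for Chil3 2021 and 1096. Cyp1a1 went the other way, 212 against 345, as did Clca1, 770.5 against 1397, and Retnla was near equal, 3398 against 3689. For Zbtb16 the difference of means was -58.9 CPM in HDM_CP, and the single differences sum to -128. Without PBS_CP 57 the sums were 4.64 for Apol7c, 25.8 for Ccl8, 1072 for Chil3, 363 for Cyp1a1, 1325 for Clca1, 3521 for Retnla and -128 for Zbtb16, an alternative chosen after seeing the data.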

How the data were processed

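Estimated counts and TPM per gene were deposited by the authors for 27 libraries of polyA RNA, sequenced as paired reads. The submitters' processing notes name STAR, StringTie 2 and build GRCm39. Other settings, including strand, are not given in the sources used here. The deposited estimated counts are whole numbers and sum to 56.3 M to 84.5 M per library, 2.82 to 4.22 times the planned 20 M pairs, so they were also tested divided by 4. The deposited TPM values were used only for alternatives, in limma on log2(TPM + 1) and log2(TPM + 0.1). Genes without a symbol held 0.0602% of the counts.

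Columns were matched to samples by the number that opens each title, and groups were taken from the labels. The 24629 of 56941 genes that passed filterByExpr of edgeR 4.0.16 (minimum count 10, R 4.3.3) were scaled by TMM and fitted in 1 robust quasi-likelihood model over the 4 groups. The total change was HDM_CP minus PBS_SAL, the difference from the sum was the interaction term, and Benjamini-Hochberg adjustment covered all genes tested. DESeq2 1.42.0 and limma 3.58.1 (voom with quality weights, and the TPM fits) were alternatives, with other scalings, filters and each library left out in turn. The genes and lists were chosen with earlier results of these data known, so no count over a list is independent evidence of its direction. Genes named were the 15 largest rises and 15 largest falls above a mean log2 CPM floor of 1, the 4 members of each list with the smallest p (all called members where 5 or fewer), the 6 with the smallest p of the difference from the sum, and a preset list. Reads of paralogs (Ear, Chil, Apol, Oas and immunoglobulin genes) cannot be divided with certainty. The scripts were tested on simulated data.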

Additional observations from a re-analysis of the deposited data

Results flagged for a closer look

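Within each group, the highest or lowest library of 143 genes was compared with the nearest other library by Dixon's criterion at the 95% level, 572 group tests in all. A gap this wide was found 45 times, and chance gives about 1 in 20 groups. The values below are CPM, and why a library stood apart was not tested.

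PBS_CP 57 was the highest PBS_CP library for 8 genes, with CPM of 515 for Clca1 (nearest other 11.1), 42.6 for Muc5ac (nearest other 3.11), 57.9 for Fcgbp (nearest other 4.44), 28.7 for Slc26a4 (nearest other 6.32), 150 for Pigr (nearest other 69), 7.43 for Adra2a (nearest other 0.762), 59.5 for Chil4 (nearest other 4.1) and 619 for Sftpd (nearest other 529). HDM_CP 66 lay apart from the other HDM_CP libraries for 9 genes, with CPM of 71.2 for Clca1 (lowest, nearest other 464), 13.2 for Muc5ac (lowest, nearest other 52.4), 44.7 for Muc5b (lowest, nearest other 147), 9.22 for Bpifb1 (lowest, nearest other 67.5), 1370 for Retnla (lowest, nearest other 3090), 17.8 for Chil4 (lowest, nearest other 89.2), 1.55 for Scin (lowest, nearest other 5.01), 34 for Bhlhe41 (highest, nearest other 25.3) and 11.6 for Scgb3a1 (lowest, nearest other 69.1). PBS_SAL 105 lay apart from the other controls for 6 genes, with CPM of 27 for Ltf (highest, nearest other 8.44), 52.3 for C1qa (highest, nearest other 29.3), 8.29 for Mx1 (highest, nearest other 6.32), 613 for Hopx (lowest, nearest other 741), 203 for Rtkn2 (lowest, nearest other 275) and 65.4 for Scgb3a1 (highest, nearest other 3.59). HDM_SAL 99 was the highest HDM_SAL library for 5 genes, with CPM of 2730 for C3 (nearest other 1740), 137 for Ccr2 (nearest other 94.6), 94.1 for C1qa (nearest other 55.1), 29.7 for Oas1a (nearest other 14) and 8.75 for Cxcl10 (nearest other 3.98).

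The other 17 gaps were spread over 12 libraries. HDM_CP 45 had Sema7a lowest at 80 (nearest other 112). HDM_CP 49 had Osm highest at 5.94 (nearest other 3.01). HDM_SAL 100 had Il13 lowest at 0.072 (nearest other 0.558) and Cyp1b1 lowest at 0.979 (nearest other 12.5). HDM_SAL 52 had Hif3a lowest at 1.1 (nearest other 2.35) and Scgb3a1 lowest at 4.15 (nearest other 38.7). HDM_SAL 54 had Ccr3 lowest at 0 (nearest other 0.245). HDM_SAL 72 had Hmgcs1 lowest at 109 (nearest other 133) and Ciart highest at 25.1 (nearest other 19.1). PBS_CP 75 had Has2 lowest at 0.194 (nearest other 0.459) and Tfrc lowest at 63.6 (nearest other 75.5). PBS_CP 76 had Slc7a11 highest at 20.4 (nearest other 6.27). PBS_SAL 61 had Galnt15 highest at 64.5 (nearest other 39.9) and Hif3a highest at 10 (nearest other 5.29). PBS_SAL 79 had Sftpa1 highest at 2480 (nearest other 2140). PBS_SAL 80 had Fabp1 lowest at 1.12 (nearest other 2.37). PBS_SAL 81 had Ptges lowest at 25.1 (nearest other 29.6).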

How the results depend on the processing

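Of 139 genes whose total change was given, 121 kept their direction and their side of the threshold under up to 40 alternatives, 14 lost the call somewhere, 1 gained it (Gpnmb) and 3 that did not pass turned sign. The counts of higher and lower genes stayed within 1.5 times of 2120 and 1447, except under a limit of 2-fold (604 and 61). Leaving out each library in turn gave 1675 to 2330 higher and 1010 to 1802 lower genes. Counts of the difference from the sum were 6 with DESeq2 and 0 to 1 with each library left out, the 1 being Ank without HDM_SAL 72. For HDM_SAL against PBS_SAL the count was 2021 with DESeq2, 764 with unfiltered log2(TPM + 1) (more lower than higher in all 3 TPM settings) and 602 to 1656 with a library left out. For PBS_CP against PBS_SAL it was 1 without the filter on low counts, 10 with voom (1 higher and 9 lower), 32 with DESeq2 (13 higher and 19 lower), 4 with log2(TPM + 0.1), 1 with unfiltered TPM and 1 to 5 with a library left out. For HDM_CP against HDM_SAL it was 2 with runs of library numbers as a block, 5 with counts divided by 4, 4 without the 3 libraries under 60 M, 3 with voom, 200 with DESeq2 (167 higher and 33 lower), 2 with log2(TPM + 1), with or without the filter, and 1 to 146 with a library left out. For HDM_CP against PBS_CP it was 1194 with unfiltered TPM and 1207 to 2600 with a library left out. The cause of these shifts was not tested.

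The difference in Marco was 0.19 without libraries under 60 M and ranged from -0.42 to 0.19 with a library left out, above 0 without PBS_SAL 64, 79 or 104 or HDM_CP 49, 67 or 98. With a library left out, that in Nqo1 ranged from -0.067 to 0.21, below 0 without HDM_CP 96, and that in Siglecf from -0.22 to 0.039, above 0 without PBS_SAL 79 or HDM_CP 49. Calls were also lost for Ahrr, Cxcl10 and Cxcl13 with unfiltered TPM, Cxcl9 and Apol6 with 2 of the TPM settings each, Ccr3 with all 3, Ear1 without the filter or the libraries under 60 M, and Alox15 and Scgb3a1 when HDM_CP and PBS_SAL alone were fitted. The alternatives for the comparisons beside HDM_CP against PBS_SAL were added after seeing the data. No paired analysis was possible because each library number occurs once, so no number is shared between groups. The number of libraries, and the estimated nature of the counts, limit the precision, most of all for genes under 1 CPM.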
